A study of Mus musculus with 7 samples.

Results

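Endothelins are small secreted peptides that act on blood vessels, heart muscle and cells derived from the neural crest. They are made as inactive precursors, which endothelin-converting enzymes cleave into the active peptides. The active peptides bind the receptors encoded by *Ednra* and *Ednrb*. *Ednra*, on vascular smooth muscle and cardiomyocytes, couples to Gq proteins and drives constriction and growth. *Ednrb*, on endothelium, promotes nitric oxide release and clears the peptide.

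The endothelin genes described here are the ligands *Edn1* and *Edn3*, the converting enzymes *Ece1* and *Ece2* and the receptors *Ednra* and *Ednrb*. They are 6 of the 20927 entries kept from the count table. All 6 passed the filter on low counts that left 13894 entries, termed genes here, for testing. The members were chosen by family after the rise of *Edn3* counts in A178D left ventricles was known from these same libraries. The genotype contrast of the members is therefore given as a description, and nothing is supported with it.

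RNA was sequenced from left ventricles of 3 WT mice (replicates 1, 3 and 4) and 4 A178D mice (replicates 1 to 4), 1 library per sample, with the strain labelled C57BL/6J. A178D mice are homozygous for a missense change in titin, the giant protein that spans the sarcomere from Z-disc to M-band. The edit was made in C57BL/6N embryonic stem cells. Repeated crosses to C57BL/6J followed, and the WT and homozygous mice of the study are littermates. Age and sex of these hearts are not given in the sources used here. The WT libraries held between 41102868 and 54245530 counts and the A178D libraries between 33080675 and 52345529.

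Ventricular markers were at a high level in both genotypes. *Myl2*, the ventricular regulatory light chain, had 12800 ± 654 CPM (library-scaled counts using TMM factors, SD, n = 3) among WT hearts and 13000 ± 885 (SD, n = 4) among A178D hearts. The 2 ventricular myocyte markers summed to between 18200 and 21700 CPM in each heart, and neither was called. Of the 5 atrial markers, *Bmp10* was at 0 in all hearts, and *Sln* and *Myl7* had at most 4 and 8 counts. *Stard10* was the most abundant atrial marker at 25.3 and 25.8 CPM in WT and A178D, and *Myl4* had 1.88 and 2.95 CPM. Of the 7 cardiomyocyte markers, led by *Myh6*, 1 was called, *Mybpc3*, with a log2 fold change of 0.30 (SE 0.06, adjusted p = 0.023), a call lost without WT replicates 3 and 4 and A178D replicates 1 and 3. The median of this list was -0.03, 5 of its 7 genes lay below 0, and *Myh6* had -0.11 (SE 0.06).

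Across all genes, edgeR's quasi-likelihood test called 327 of 13894 genes (2.35%) at a Benjamini-Hochberg adjusted p under 0.05, with 145 genes (1.04%) higher and 182 (1.31%) lower in A178D. Without WT replicate 3, 22 genes were called higher and 31 lower. DESeq2 called 289 genes higher and 377 lower. The share of all genes with an unadjusted p under 0.05 is not given here, so nothing is read from list counts at that threshold. Of the 6 endothelin genes, 2 were called, *Edn3* higher and *Ednra* lower, the latter not without WT replicate 3 (log2 fold change -0.47). Since the contrast was known when the family was chosen, nothing is read from this share or from the call of any member. In 3 of the 6 members the hearts of the genotypes did not overlap, beside 16.1% of all tested genes. Such a share was not computed for sums over marker or pathway lists, so nothing is read from sums that do not overlap.

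Levels between genes are compared below per length, as CPM divided by the kilobases of exon. In WT hearts the order of mean levels was *Ece1*, *Ednra*, *Ednrb*, *Edn1*, *Ece2* and *Edn3*. In A178D hearts it was *Ece1*, *Ednra*, *Ednrb*, *Edn1*, *Edn3* and *Ece2*. *Ece1* stood far above the rest, at 26.0 ± 1.71 in WT (SD, n = 3). Neighbours in the order overlapped in their levels for *Ece2* and *Edn3* among WT hearts and for *Edn1* and *Edn3* among A178D hearts, while *Ece2* lay below the other members in A178D. With the longest transcript in place of the exon union, *Edn3* stood before *Edn1* in A178D.

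**Figure D1:**
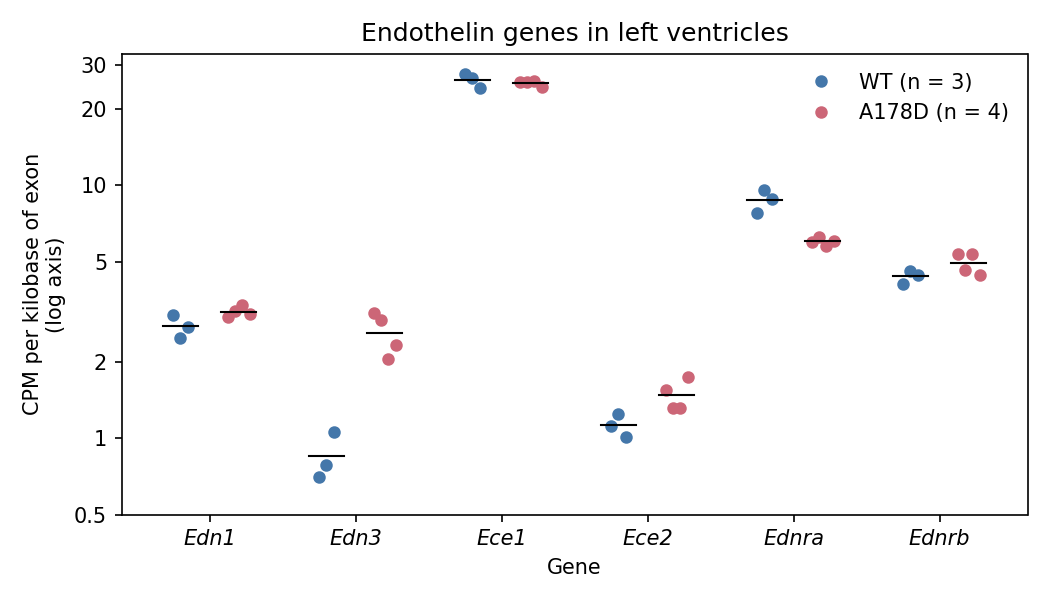
Level of the 6 endothelin genes in each heart, in CPM per kilobase of exon on a log axis, with WT in blue (n = 3) and A178D in red (n = 4) and lines at the means. *Edn3* lay between 0.703 and 1.06 in WT and between 2.06 and 3.12 in A178D, and *Ednra* between 7.80 and 9.57 and between 5.76 and 6.26.

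*Edn1* (ENSMUSG00000021367, chr13:42301476-42307990, GRCm38) encodes the precursor of endothelin-1, the vasoconstrictor released chiefly by endothelium. Its level per length was 3.07, 2.50 and 2.75 in WT replicates 1, 3 and 4, and 3.01, 3.20, 3.37 and 3.09 in A178D replicates 1 to 4. The genotypes overlapped, since WT replicate 1 lay above A178D replicate 1. The mean was 2.77 ± 0.287 (SD, n = 3) among WT hearts and 3.17 ± 0.157 (SD, n = 4) among A178D hearts, and the log2 fold change of A178D over WT was 0.19 with an SE of 0.13. An antisense gene, *Gm47118*, overlaps it and has no entry in the count table.

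*Edn3* (ENSMUSG00000027524, chr2:174760619-174784042) encodes the precursor of endothelin-3, which prefers the receptor of *Ednrb* and is known for its part in melanocyte and enteric neuron development. Its level per length was 0.703, 0.785 and 1.06 in WT replicates 1, 3 and 4. It was 3.12, 2.95, 2.06 and 2.33 in A178D replicates 1 to 4. The genotypes did not overlap, with all A178D values higher, and A178D replicates 1 and 2 were the highest. These levels rest on 152 to 177 counts in WT libraries and 310 to 640 in A178D libraries. The mean was 0.849 ± 0.186 (SD, n = 3) among WT hearts and 2.62 ± 0.503 (SD, n = 4) among A178D hearts. Its log2 fold change was 1.63 with an SE of 0.18, or 3.10-fold.

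The ratio of the ligands follows the rise of *Edn3* that was known when the family was chosen, and it is given as a description. The ratio of *Edn3* to *Edn1* per length was 0.229, 0.315 and 0.385 in WT replicates 1, 3 and 4, and 1.04, 0.922, 0.611 and 0.753 in A178D replicates 1 to 4. With the exon union as length, *Edn1* was the more abundant ligand transcript in all hearts except A178D replicate 1. With the longest transcript, the mean level of *Edn3* was 1.12 in WT and 3.45 in A178D, and that of *Edn1* 2.77 and 3.17, so the order in A178D depends on the length used. The ligand *Edn2* was near 0, with no count in any WT heart nor in A178D replicates 3 and 4, 8 counts in A178D replicate 1 and 2 in A178D replicate 2, and it was not tested.

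*Ece1* (ENSMUSG00000057530, chr4:137862237-137965229) encodes the main converting enzyme of endothelial and other cells. Its level per length was 27.5, 26.5 and 24.2 in WT replicates 1, 3 and 4, and 25.7, 25.6, 25.9 and 24.4 in A178D replicates 1 to 4. All A178D hearts lay within the range of the WT hearts. The log2 fold change was -0.03 with an SE of 0.07. An antisense gene, *Gm13012*, overlaps *Ece1* and has no entry in the table.

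*Ece2* (ENSMUSG00000022842, chr16:20629828-20646485) encodes a related enzyme that works at acidic pH. Its level per length was 1.12, 1.25 and 1.01 in WT replicates 1, 3 and 4, and 1.55, 1.32, 1.32 and 1.75 in A178D replicates 1 to 4. The genotypes did not overlap here either, with A178D higher and the closest values at 1.25 and 1.32. The log2 fold change was 0.40 with an SE of 0.14. The counts of *Ece2* are uncertain, because the protein-coding gene *Gm49333* overlaps it on the same strand and has no entry in the table. The ratio of *Ece1* to *Ece2* per length was 23.3 ± 1.78 (SD, n = 3) among WT hearts and 17.4 ± 2.63 (SD, n = 4) among A178D hearts, with ranges of 21.3 to 24.6 and 14.0 to 19.6.

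*Ednra* (ENSMUSG00000031616, chr8:77663031-77724464) encodes the endothelin receptor that mediates constriction of vascular smooth muscle. Its level per length was 7.80, 9.57 and 8.81 in WT replicates 1, 3 and 4, and 5.96, 6.26, 5.76 and 6.02 in A178D replicates 1 to 4. The genotypes did not overlap, with A178D lower, and the A178D values lay close together. The mean was 8.73 ± 0.889 (SD, n = 3) among WT hearts and 6.00 ± 0.209 (SD, n = 4) among A178D hearts. Its log2 fold change was -0.54 with an SE of 0.08, and -0.47 without WT replicate 3, the highest WT heart. The gene *4933431K23Rik* overlaps *Ednra* on the opposite strand and has no entry in the table. Whether counting used strand is not given in the sources used here, so reads of such opposite-strand genes cannot be told apart from those of *Edn1*, *Ece1* and *Ednra*.

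*Ednrb* (ENSMUSG00000022122, chr14:103814625-103844402) encodes the receptor that binds all endothelins with like affinity. Its level per length was 4.09, 4.58 and 4.42 in WT replicates 1, 3 and 4, and 5.37, 4.61, 5.37 and 4.41 in A178D replicates 1 to 4. The genotypes overlapped, with A178D replicate 4 below WT replicates 3 and 4. The log2 fold change was 0.18 with an SE of 0.10.

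The receptors were therefore closer to each other in A178D hearts. The ratio of *Ednra* to *Ednrb* per length was 1.91, 2.09 and 1.99 in WT replicates 1, 3 and 4, and 1.11, 1.36, 1.07 and 1.37 in A178D replicates 1 to 4. *Ednra* stayed the more abundant receptor transcript in each of the 7 hearts.

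**Figure D2:**
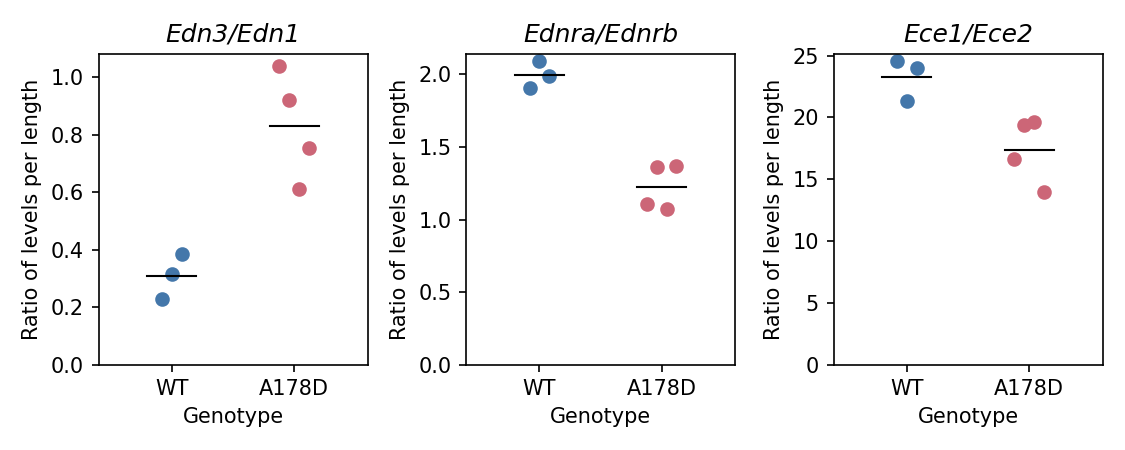
Ratio of levels per length in each heart for the ligands, the receptors and the converting enzymes, with WT in blue (n = 3), A178D in red (n = 4) and lines at the means. The receptor ratio lay between 1.91 and 2.09 in WT and between 1.07 and 1.37 in A178D hearts.

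Smooth muscle, the main vascular site of *Ednra*, also had lower marker levels in A178D hearts. All 7 smooth muscle markers had a log2 fold change below 0, with a median of -0.62 beside 0.00 over all tested genes. Of the 7, 6 were called lower, beside 1.31% of all tested genes. *Acta2*, smooth muscle alpha-actin, fell from 191 ± 19.3 CPM (SD, n = 3) to 126 ± 13.1 (SD, n = 4), a log2 fold change of -0.59 (SE 0.09, adjusted p = 0.00587). *Myh11*, the smooth muscle myosin heavy chain, had a log2 fold change of -0.67 (SE 0.12, adjusted p = 0.0146). The other called markers were *Cnn1* (-0.82), *Lmod1* (-0.70), *Tagln* (-0.62) and *Mylk* (-0.49), and *Smtn*, first by CPM over all hearts but behind *Acta2* per length, had -0.20 (SE 0.08, adjusted p = 0.212). Summed over the list, the level was 708, 700 and 658 CPM in WT replicates 1, 3 and 4, and 428, 510, 530 and 519 in A178D replicates 1 to 4, with no overlap. Leave-one-out fits called 2 to 5 of the markers, with 2 without WT replicate 3 or WT replicate 4 and 3 without WT replicate 1 or A178D replicate 1. Only *Acta2* and *Tagln* were called in all 7 of these fits. In these bulk samples, fewer smooth muscle cells and less RNA per cell cannot be told apart, and the part of either in the level of *Ednra* was not tested.

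Pericytes, the mural cells of capillaries, had 8 markers with log2 fold changes between -0.38 and -0.09 and a median of -0.25. None was called by edgeR, while 4 had an unadjusted p under 0.05 and DESeq2 called 3. The summed level, led by *Abcc9*, was 1120, 1140 and 1090 CPM in WT replicates 1, 3 and 4, and 952, 1000, 1060 and 832 in A178D replicates 1 to 4, again without overlap. The part of these cells in the level of *Ednra* was not tested either.

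**Figure D3:**
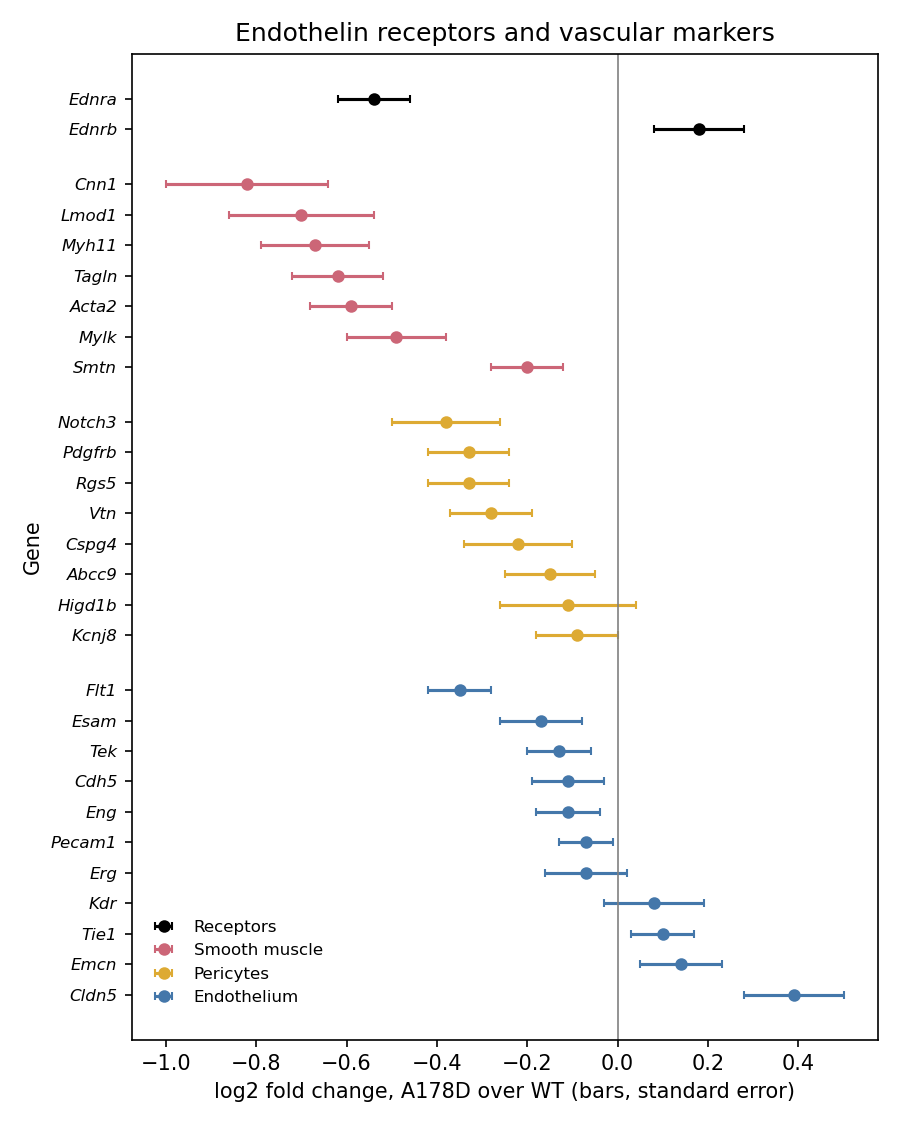
Log2 fold change of A178D over WT with its standard error for both endothelin receptors and for the markers of smooth muscle, pericytes and endothelium. *Ednra* lay at -0.54, within the range of the smooth muscle markers (-0.82 to -0.20) and below that of the pericyte markers (-0.38 to -0.09), and *Ednrb* at 0.18, within that of the endothelial markers (-0.35 to 0.39).

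Endothelium, a source of endothelin-1 and a site of *Ednrb*, had 11 markers with a median log2 fold change of -0.07. The summed level was 1580, 1500 and 1410 CPM in WT replicates 1, 3 and 4, and 1400, 1420, 1480 and 1450 in A178D replicates 1 to 4, and the genotypes overlapped. *Kdr*, with the highest mean CPM of these markers over all hearts but not the highest level per length, had a log2 fold change of 0.08 (SE 0.11). *Flt1*, a VEGF receptor, was the single called marker at -0.35 (SE 0.07, adjusted p = 0.02), and DESeq2 called 1 marker higher and 1 lower. By vessel type, 1 of 6 arterial markers was called, *Sox17*, at -0.47 (SE 0.10, adjusted p = 0.0317). *Efnb2* had the highest mean CPM of the arterial list over all hearts, but not among A178D hearts alone nor per length. All 6 lay below 0 with a median of -0.12, and their summed level was 124, 115 and 106 CPM in WT replicates 1, 3 and 4 and 98.6, 98.6, 106 and 105 in A178D replicates 1 to 4, with all A178D hearts lower before rounding. Of the 5 tested venous and endocardial markers, with *Vwf* first by CPM, *Plvap* was called at 0.72 (SE 0.13, adjusted p = 0.0113), and *Ackr1* had at most 14 counts. Per length *Plvap* and *Vwf* were close, at 4.93 and 4.89 over all hearts. This list was mixed in direction, with 2 genes higher and 2 lower at an unadjusted p under 0.05, and 2 called higher and 1 lower by DESeq2. Of the 5 tested lymphatic markers, with *Prox1* first by CPM but not per length, *Reln* was called at -0.72 (SE 0.16, adjusted p = 0.033), and *Ccl21a* was at 0. All 5 lay below 0, 3 had an unadjusted p under 0.05 and DESeq2 called 2. Their summed level was 119 to 120 CPM in WT and 84.1 to 111 CPM in A178D hearts, without overlap. Without WT replicate 3 all 4 of these calls were lost, and over the 7 leave-one-out fits *Plvap* was called in 5, *Flt1* and *Reln* in 3 and *Sox17* in 1. Their highest adjusted p in these fits was 0.0747 for *Plvap*, 0.102 for *Flt1*, 0.136 for *Reln* and 0.149 for *Sox17*.

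Cells that depend on endothelin-3 in development were also looked for by their markers. Of the 5 melanocyte markers, *Tyr* and *Tyrp1* were at 0 in all hearts, *Mlana* had at most 2 counts and *Pmel* 22. *Dct*, dopachrome tautomerase, held nearly all of the list's level and was called at a log2 fold change of 0.86 (SE 0.15, adjusted p = 0.0115). The summed melanocyte level was 3.56, 3.32 and 3.17 CPM in WT replicates 1, 3 and 4, and 5.68, 5.35, 6.14 and 6.61 in A178D replicates 1 to 4. *Dct* was not called without WT replicate 3 or WT replicate 4, with an adjusted p of up to 0.0761. None of the 6 Schwann cell markers, led by *Cdh19*, was called by edgeR or DESeq2 or had an unadjusted p under 0.05. Their summed level overlapped, between 15.1 and 21.1 CPM in WT and between 15.6 and 21.0 CPM in A178D hearts.

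Fibroblasts, which also carry endothelin receptors, had 1 of 8 markers called, the collagen gene *Col3a1*, at a log2 fold change of 0.62 (SE 0.14, adjusted p = 0.0317). Of the 8, 4 were higher at an unadjusted p under 0.05, DESeq2 called 2 higher, and the median was 0.12. The call of *Col3a1* held in 3 of 7 leave-one-out fits. It was lost without WT replicate 3 and without A178D replicates 1, 2 and 3 (adjusted p up to 0.113). *Dcn*, the most abundant fibroblast gene, had a log2 fold change of 0.00 (SE 0.08). The summed fibroblast level was 1180, 1210 and 1090 CPM in WT replicates 1, 3 and 4, and 1410, 1330, 1280 and 1300 in A178D replicates 1 to 4. No mast cell marker (5 tested, led by *Kit*) was called by edgeR or DESeq2 or passed an unadjusted p of 0.05. These markers were mixed in direction, with 2 above 0 and 3 below. Their summed level was 13.4, 16.0 and 12.6 CPM in WT and between 11.1 and 12.4 CPM in A178D hearts, narrowly without overlap. Most of this sum was *Kit*, with a mean of 10.2 CPM in WT and 8 in A178D. Among the 5 macrophage markers, led by *Csf1r*, none was called by either tool and 2 had an unadjusted p under 0.05. The epicardial markers were near 0 apart from *Wt1*, with at most 6 counts of *Upk3b*, 2 of *Upk1b* and *Msln* and 4 of *Krt19*.

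Beyond the members, 83 genes of the pathway in 7 lists were read from the same fit, and 77 were tested. The totals cover all 7 lists, and 6 of the lists are described singly. Of the tested genes, 3 were called higher and 2 lower, beside 1.04% and 1.31% of all tested genes, and the median log2 fold change was -0.07 beside 0.00. Without WT replicate 3, WT replicate 4 or A178D replicate 1, 1 of them was called.

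The other genes of the endothelin system, mostly for ligand processing and breakdown, did not pass the test. Of 15 such genes, *Edn2* included, 10 were tested, their log2 fold changes lay between -0.27 and 0.37, and none was called by edgeR or DESeq2 or had an unadjusted p under 0.05. They include *Furin*, the convertase that trims the endothelin precursor ahead of *Ece1* (-0.07, SE 0.07), and *Mme*, neprilysin, which degrades the peptides (-0.14, SE 0.20). *Ctsa*, cathepsin A, and *Pcsk6* had the highest levels per length, at 30.7 ± 1.68 and 19.4 ± 2.05 (SD, n = 7). *Kel*, a relative of the converting enzymes, was at 0, and *Ecel1* and *Phex* had at most 4 and 8 counts.

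Downstream of the receptors, 1 of the 17 genes for G proteins, phospholipase C, inositol trisphosphate receptors and protein kinase C was called. It was *Itpr2*, an inositol trisphosphate receptor, with a log2 fold change of -0.49 (SE 0.10, adjusted p = 0.0279). *Gnai2* and *Gna12* had the highest levels per length in this list, at 75.2 ± 5.76 and 31.8 ± 2.15 (SD, n = 7). The call of *Itpr2* held in 4 of 7 leave-one-out fits and was lost without WT replicate 3, WT replicate 4 or A178D replicate 1 (adjusted p up to 0.133).

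None of the 11 desensitisation genes was called by edgeR, while 2 had an unadjusted p under 0.05 and DESeq2 called 2. *Rgs5* and *Grk2* were the highest per length at 28.5 ± 4.23 and 19.0 ± 0.906 (SD, n = 7), and *Rgs5*, also on the pericyte list, had a log2 fold change of -0.33 (SE 0.09, adjusted p = 0.0653). All 8 genes of the nitric oxide and prostacyclin arm, which opposes endothelin-1, had a log2 fold change below 0, from -0.50 to -0.09 with a median of -0.16. None of the 8 was called by edgeR, 3 had an unadjusted p under 0.05 and DESeq2 called 2. *Nos3*, the endothelial nitric oxide synthase, had -0.14 (SE 0.09, adjusted p = 0.485), and *Gucy1b1*, a subunit of its target guanylate cyclase, had -0.24 (SE 0.08, adjusted p = 0.123).

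None of the 11 regulators of *Edn1* transcription was called by edgeR or DESeq2, and 3 had an unadjusted p under 0.05. *Epas1* and *Gata4* were the highest per length, with log2 fold changes of -0.18 (SE 0.07) and 0.16 (SE 0.08). Of the 9 genes that endothelin-1 raises in cultured cardiomyocytes, 3 were called, all higher in A178D, beside 1.04% of all tested genes. The median log2 fold change was 0.63 beside 0.00. The study had already reported *Acta1* and *Nppa* among its most raised genes. Nothing is read from this share or median, because the list was chosen with earlier results of these data known. The summed level, of which *Myh7* held the most CPM over all hearts, was 1610, 840 and 784 CPM in WT replicates 1, 3 and 4, and 2590, 2330, 2150 and 2740 in A178D replicates 1 to 4. WT replicate 1 thus stood above the other WT hearts and below all A178D hearts. *Acta1*, skeletal alpha-actin, had a log2 fold change of 2.64 (SE 0.29, adjusted p = 0.000651) and *Nppa*, the precursor of atrial natriuretic peptide, 1.31 (SE 0.24, adjusted p = 0.0146). *Rcan1*, a regulator of calcineurin, had 0.63 (SE 0.15, adjusted p = 0.0394). The call of *Acta1* held in all 7 leave-one-out fits, with a log2 fold change of 3.25 without WT replicate 1, that of *Nppa* in 4 and that of *Rcan1* in 2. *Nppa* and *Rcan1* lost theirs without WT replicate 3, WT replicate 4 or A178D replicate 1 (adjusted p up to 0.086 and 0.194), and *Rcan1* also without A178D replicates 2 and 4. DESeq2 did not call *Rcan1* (adjusted p = 0.063). Many stimuli raise these genes, and their link to any endothelin gene was not tested.

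*Edn3* lies on the same chromosome as *Ttn*, the edited gene, which spans chr2:76703980-76982547, and the gap between them is 97.8 Mb. *Ttn* had a level of 6660 ± 521 CPM (SD, n = 3) among WT hearts and 5530 ± 1070 (SD, n = 4) among A178D hearts, with a log2 fold change of -0.27 (SE 0.12, adjusted p = 0.287). Among 7 tested genes with a start within 500000 bases of *Edn3*, none was called by edgeR or DESeq2 and 2 had an unadjusted p under 0.05. Their log2 fold changes lay between -0.08 and 1.14, the highest for a gene with at most 16 counts. The genes next to *Ednra* had log2 fold changes between -0.06 and -0.02 (3 tested, none called or with an unadjusted p under 0.05). For *Ednrb* 1 neighbour was tested, for *Edn1* 2 and for *Ece1* 12, and edgeR called none of these, with 3 at an unadjusted p under 0.05 and 1 called by DESeq2. Of the 17 tested neighbours of *Ece2*, edgeR called *Fam131a* at 0.35 (adjusted p = 0.0207), 4 had an unadjusted p under 0.05 and DESeq2 called 3. The others called by DESeq2 were *Chrd* at -0.74 and *Abcc5* at -0.26, and all 3 are named here after their values were seen.

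The genes whose profiles most resembled *Edn3* over the 7 hearts, by Pearson's r of log2 CPM among 12312 genes, were *Pkp2*, *Il18bp*, *Ifnlr1* and *Kif1a*, with r from 0.977 to 0.992. These values hold the difference between genotypes, and the most similar of so many genes over so few hearts have a high r by selection. With the genotype means subtracted, the most similar genes to *Edn3* were *Aspn*, *Bmt2*, *Sptlc1* and *Klhl41* (r from 0.968 to 0.980), and none of them was in the first group. On the same subtracted scale *Edn1* was most like *Tmem107*, *Nufip2*, *Phf12* and *Zfp566* (0.970 to 0.996), and *Ednra* most like *Ifit1*, *Fkbp15*, *Galk2* and *Lyplal1* (0.985 to 0.993). For *Ednrb* they were *March8*, *Slc10a7*, *Abraxas1* and *Wdr44* (0.976 to 0.980), for *Ece1* *Tbc1d32*, *Urgcp*, *Pop1* and *Lrrc42* (0.981 to 0.991), and for *Ece2* *Prpf6*, *Acy1*, *Tmco6* and *Exosc7* (0.981 to 0.985).

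RefSeq promoter sequences (GRCm38.p6) matched all 6 members, and the 250 bases before the RefSeq start of *Edn3* and *Ednra* are shown because the log2 fold changes of these members were farthest from 0. They were searched on both strands for GATAA (in 22.6% of 32851 promoters), CATTCC (12.6%), TGANTCA (6.75%), GGAAA (55.6%), CAGCTG (13.0%), ACGTG (16.6%) and the CArG box of smooth muscle genes (1.47%). These are core letters for GATA, TEAD, AP-1, NFAT, basic helix-loop-helix, hypoxia-inducible and serum response factors in that order. *Edn3* held 1 CAGCTG, starting 77 bases before its RefSeq start, and *Ednra* 1 GGAAA, starting 110 bases before its own, both in capitals below. No other motif of the 7 was in these windows. The *Edn3* window is chr2:174760369-174760618 on the plus strand and the *Ednra* window chr8:77724453-77724702 on the minus strand. GENCODE begins *Ednra* slightly further upstream than RefSeq, so the last bases of the *Ednra* window lie within the gene as positioned above.
Edn3: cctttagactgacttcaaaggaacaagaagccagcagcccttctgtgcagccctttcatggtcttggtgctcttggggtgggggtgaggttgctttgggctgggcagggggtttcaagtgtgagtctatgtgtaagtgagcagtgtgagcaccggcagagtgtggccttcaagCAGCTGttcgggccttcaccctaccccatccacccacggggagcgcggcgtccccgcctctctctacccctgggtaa
Ednra: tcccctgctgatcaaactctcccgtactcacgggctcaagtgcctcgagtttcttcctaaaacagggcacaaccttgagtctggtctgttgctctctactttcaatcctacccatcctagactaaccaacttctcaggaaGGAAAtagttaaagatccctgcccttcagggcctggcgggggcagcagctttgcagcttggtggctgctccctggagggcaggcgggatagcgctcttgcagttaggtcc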

How the data were processed

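The authors deposited raw counts per gene, which per the labels come from stranded poly(A) libraries sequenced from both ends. The submitters' processing notes name bcl2fastq 2.18.0.12, HISAT2 2.1.0, SAMtools 1.6, DESeq2 1.26.0 and the build GRCm38, and the counting program is not given in the sources used here. A second deposited table, of normalized values, was not used. Of 21257 entries, 442 in 219 sets with identical counts were reduced to 1 each, and repeats of an identifier and its counts were removed, which left 20927. Among these, 35 identifiers kept more than 1 entry, with differing counts. Names, positions and lengths came from GENCODE M21, and 300 entries had no name.

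Among counts of 1 to 20, only 17.6 to 20.3% were odd, so fewer molecules than counts may stand behind low values, and errors of low genes cover the spread between hearts. Genotypes were compared with edgeR 4.0.16 in R 4.3.3 (TMM, glmQLFit, glmQLFTest, at least 10 counts in at least 3 libraries, Benjamini-Hochberg adjusted p under 0.05 over all tested genes), and "called" means past this threshold. Standard errors are those of the log2 fold changes. Levels per length use the union of exons. The pipeline was tested on simulated data. No batch is labelled. Each labelled replicate was taken as a separate heart, and p-values measure the spread between these samples.

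The members and lists were chosen with earlier results of these data known. Named genes are the members, *Edn2*, the 4 most similar genes to each member and genes overlapping one. For each pathway list described singly they are called genes, the 2 with the highest level per length and some at or near 0. For each marker list they are the gene with the highest mean CPM, called genes and genes at or near 0. *Furin* and *Mme* were added for their role, *Ttn* as the edited gene, *Myh7* for its CPM and *Myl4* as the other tested atrial marker. *Fam131a*, *Chrd* and *Abcc5* were added as the neighbours of *Ece2* that edgeR or DESeq2 called. The genes of 1 pathway list are counted in the totals and not reported here. Alternatives were DESeq2 1.42.0, its size factors in edgeR, other filters, the replicate number as a block, each library left out, the table as deposited, counts halved, offsets for transcript length and GC content (mgcv 1.9.3), and for levels library totals and the longest transcript.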

Additional observations from a re-analysis of the deposited data

Results flagged for a closer look

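Dixon's ratio picked out 1 heart as distant from the rest in 2 of 69 groups of 4 A178D values, and about 1 in 20 groups would do so by chance. For *Col3a1* this was A178D replicate 2 with 324 CPM, while the remaining A178D hearts had 303 to 306. For *Dcn* it was A178D replicate 1 with 646 CPM, while the remaining ones had 555 to 562. Neither is an endothelin gene, and groups of 3 WT values were not searched.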

How the results depend on the processing

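The members' values are a description here too, and nothing is read from their calls. Over 15 alternatives, the log2 fold change of *Edn3* ranged from 1.52 to 1.81, and *Edn1*, *Ednrb* and *Ece2* had the same sign. *Ednra* ranged from -0.61 to -0.47 with each heart left out in turn, the latter without WT replicate 3 and not called. *Ece1* ranged from -0.09 to 0.01 in the same fits, with 0.01 without WT replicate 1.

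DESeq2 called 289 genes higher, 377 lower and 9 other pathway genes. With length and GC content offsets 287 genes were lower and 10 other pathway genes called. With no filter on low counts 9 other pathway genes were called, and at an adjusted p under 0.01 there was 1. With each heart left out, 22 to 215 genes were higher, 31 to 238 lower and 1 to 7 other pathway genes called. Counts fell by over 1.5 times without WT replicate 3 (22 higher, 31 lower), WT replicate 4 (40 and 42), A178D replicate 1 (40 and 50), A178D replicate 3 (78 and 112) and, for lower genes, A178D replicate 2 (115). The causes were not tested.

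With the replicate number as a block, 124 genes were higher, 147 lower and 7 other pathway genes called, *Edn3* had 1.56, *Ednra* -0.56, *Edn1* 0.19, *Ednrb* 0.21, *Ece1* -0.04 and *Ece2* 0.45. *Cnn1*, *Flt1*, *Mybpc3* and *Sox17* were not called in that fit (adjusted p = 0.0617, 0.0728, 0.0574 and 0.135), and it changed the call of no other gene named here among the members and the called list genes. A178D replicate 2 has no WT partner and added nothing to that fit. Deviations of samples with the same number did not correlate (r = 0.00, -0.04 and -0.04), so the numbers were not taken to pair hearts.

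The smooth muscle markers and each called gene of the lists were put through the same alternatives, a choice made after seeing the data. Outside the fits without 1 heart, 5 to 7 of the smooth muscle markers were called. Low counts limit *Edn1*, *Edn3* and *Ece2*, and 3 and 4 hearts limit all values.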
